A study of Homo sapiens with 16 samples.

Results

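Cells take up amino acids through families of membrane carriers, and the 56 genes described here are the measured members of 7 such families, SLC1A, SLC3A, SLC6A, SLC7A, SLC36A, SLC38A and SLC43A. They were chosen by the start of the gene symbol in the array annotation, without pseudogenes and antisense genes, from 19738 genes with a probe set that names a single gene. The prefixes also matched 5 antisense genes and SLC7A6OS, a gene that overlaps SLC7A6, and these 6 symbols were left out. Some carriers of these families move other substrates, such as taurine, creatine, monoamines or nucleobases, and they stayed among the members because the rule goes by name.

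The levels come from 16 established human lines of T-ALL, the acute leukemia of immature T lymphocytes, with total RNA of each line on 1 Affymetrix U133 Plus 2.0 array. The lines were ALL-SIL, CCRF-CEM, DU528, HSB-2, JURKAT, KOPT-K1, LOUCY, MOLT-16, MOLT-4, P12-ICHIKAWA, PEER, PF-382, SKW-3, SUP-T11, SUP-T13 and TALL-1. All were untreated and seeded alike in 10 ml of RPMI-1640 with 10% fetal bovine serum and antibiotics, then harvested at 24 hours, and the amino acids left in the medium were not measured. The lines form 1 group with no control, each value comes from 1 culture, and every SD below is the spread between lines, with no replicate error. The number of arrays limits the precision, and each p-value judges a relation across lines against the spread between lines. A lower value can reflect less RNA per cell or fewer cells with the RNA in a culture, which bulk RNA cannot tell apart.

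Values are deposited intensities on a linear scale, with a table median of 42.4, and differences are in units of log2(intensity + 16), where 1 unit is a doubling well above background. A gene is represented by its brightest probe set on average, and intensities are compared for the same gene between lines, or with the table median, because different probe sets are not equally bright. The array medians lay between 37.6 and 45.0. All 10 T-cell markers had a mean above the table median, and 6 exceeded 4 times that median (an intensity of 169) in every line. CD2 exceeded that level in only 9 lines and CD5 in 12, and they were 11.1 and 9.5 in DU528. CD3E was 31.1 in MOLT-16. Of the markers of other cell types, 2 of 4 B-cell, 3 of 4 myeloid and 4 of 5 stromal genes never reached that level. Nor did 2 of 4 epithelial, 4 of 5 neural and 1 of 2 erythroid genes, against 45.0% of all genes. The other markers did reach it. CD79A lay between 215 and 411 in every line, MBP exceeded the level in 10 lines (up to 3848 in HSB-2) and CD79B in 4 (up to 1152 in LOUCY). EPCAM exceeded it in 3 lines and HBB in 2. PDGFRB (492.5 in ALL-SIL), LYZ (384.5 in DU528) and KRT8 (238 in MOLT-16) exceeded it in 1 line each.

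Amino acid carriers work as exchangers, as sodium-driven importers or with protons. The sodium-driven carriers SLC38A1, SLC38A2 and SLC1A5 load cells with glutamine, and exchangers such as SLC7A5 trade glutamine for leucine and other large neutral amino acids, which feed protein synthesis and the growth kinase complex mTORC1. Light chains of the SLC7A family reach the membrane by pairing with a heavy chain of the SLC3A family. Activated T cells and leukemic blasts rely on this import, and T-ALL cells are treated with asparaginase because many of them make little asparagine. The transcription factor ATF4, switched on when amino acids run short, and the factors MYC and NRF2 are known to act on several carrier genes.

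SLC3A2 and SLC7A5 encode the heavy and the light chain of the leucine carrier LAT1, and theirs was the one pair of carrier genes that passed a test across the lines, as described further on. Their promoter windows, the 250 bases before the RefSeq start on GRCh38.p14, are shown in lower case with a motif match in capitals. In SLC3A2 (chr11:62881449-62881698, plus strand) the capitals mark a match to the antioxidant element TGACNNNGC, which NRF2 is known to bind, 28 bases before the start. In SLC7A5 (chr16:87869508-87869757, minus strand) they mark the E-box CACGTG, a sequence that MYC is known to bind, 124 bases before the start. The SLC3A2 window lies inside the annotated span of the gene, which begins upstream of it.
SLC3A2: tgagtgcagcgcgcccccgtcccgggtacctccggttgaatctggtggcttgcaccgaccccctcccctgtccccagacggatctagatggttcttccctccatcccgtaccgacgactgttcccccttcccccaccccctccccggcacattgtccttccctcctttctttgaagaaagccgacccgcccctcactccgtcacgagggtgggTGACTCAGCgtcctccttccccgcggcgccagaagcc
SLC7A5: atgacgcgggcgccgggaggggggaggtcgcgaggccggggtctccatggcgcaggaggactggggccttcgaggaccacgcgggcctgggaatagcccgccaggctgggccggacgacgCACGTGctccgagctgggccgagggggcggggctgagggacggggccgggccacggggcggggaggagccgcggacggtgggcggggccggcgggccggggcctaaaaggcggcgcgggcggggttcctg

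Promoter windows were available for 42 of the 56 genes, and both strands of these were searched. The other genes, SLC7A11, SLC7A3, SLC43A3 and SLC6A6 among them, had no window and were not searched. TGACNNNGC occurred in 4 of the 42 windows (SLC3A2, SLC7A1, SLC7A6 and SLC7A7), against 11.5% of 15842 promoter windows of protein-coding genes. CACGTG occurred in 5 (SLC7A5, SLC43A1, SLC38A5, SLC1A7 and SLC6A16), against 7.84%, and the ATF4 element TGATGNAA in 1 (SLC1A3), against 2.21%. No window of these genes held more than 1 of the 3 motifs, a match is a description of the letters, and binding was not measured here.

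Of the 56 genes, 29 had a mean over the lines above the table median and 27 did not, against 59.2% of all 19738 genes above it. The heavy chains, the SLC36A genes and the SLC43A genes were all above it (2 of 2, 2 of 2 and 3 of 3), as were 8 of 13 SLC7A and 8 of 11 SLC38A genes. The SLC6A and SLC1A families, which hold the neurotransmitter carriers among others, mostly were not: 4 of 18 SLC6A and 2 of 7 SLC1A genes lay above the median. The genes nearest the threshold of 5.87 on the log2 scale were SLC7A7 (mean 5.93) and SLC6A11 (5.92) just above it and SLC6A20 (5.81) and SLC1A2 (5.74) just below. The place above it rests on the probe set used for SLC3A1, SLC7A2 and SLC6A19. Their further probe sets had means below it, of 4.61 and 4.79, 5.06 and 4.94, and 4.81 and 5.77. Against 4 times the table median, 12 of the 56 genes lay above it in every line (32.2% of all genes), 13 in 1 to 15 lines (22.8%) and 31 in no line (45.0%).

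Of the 29 carriers above the median, 16 had an SD below 0.5, against 62.2% of all genes above the median, and their median SD was 0.40, the same as over all those genes. Only 3 of the 29, SLC7A3, SLC43A1 and SLC43A3, had an SD above 1, where 17.1% of all 11682 genes with a mean above the median did. Among all 56 genes the count was 5, with SLC1A3 and SLC6A13 added, against 12.5% of all genes.

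**Figure D1:**
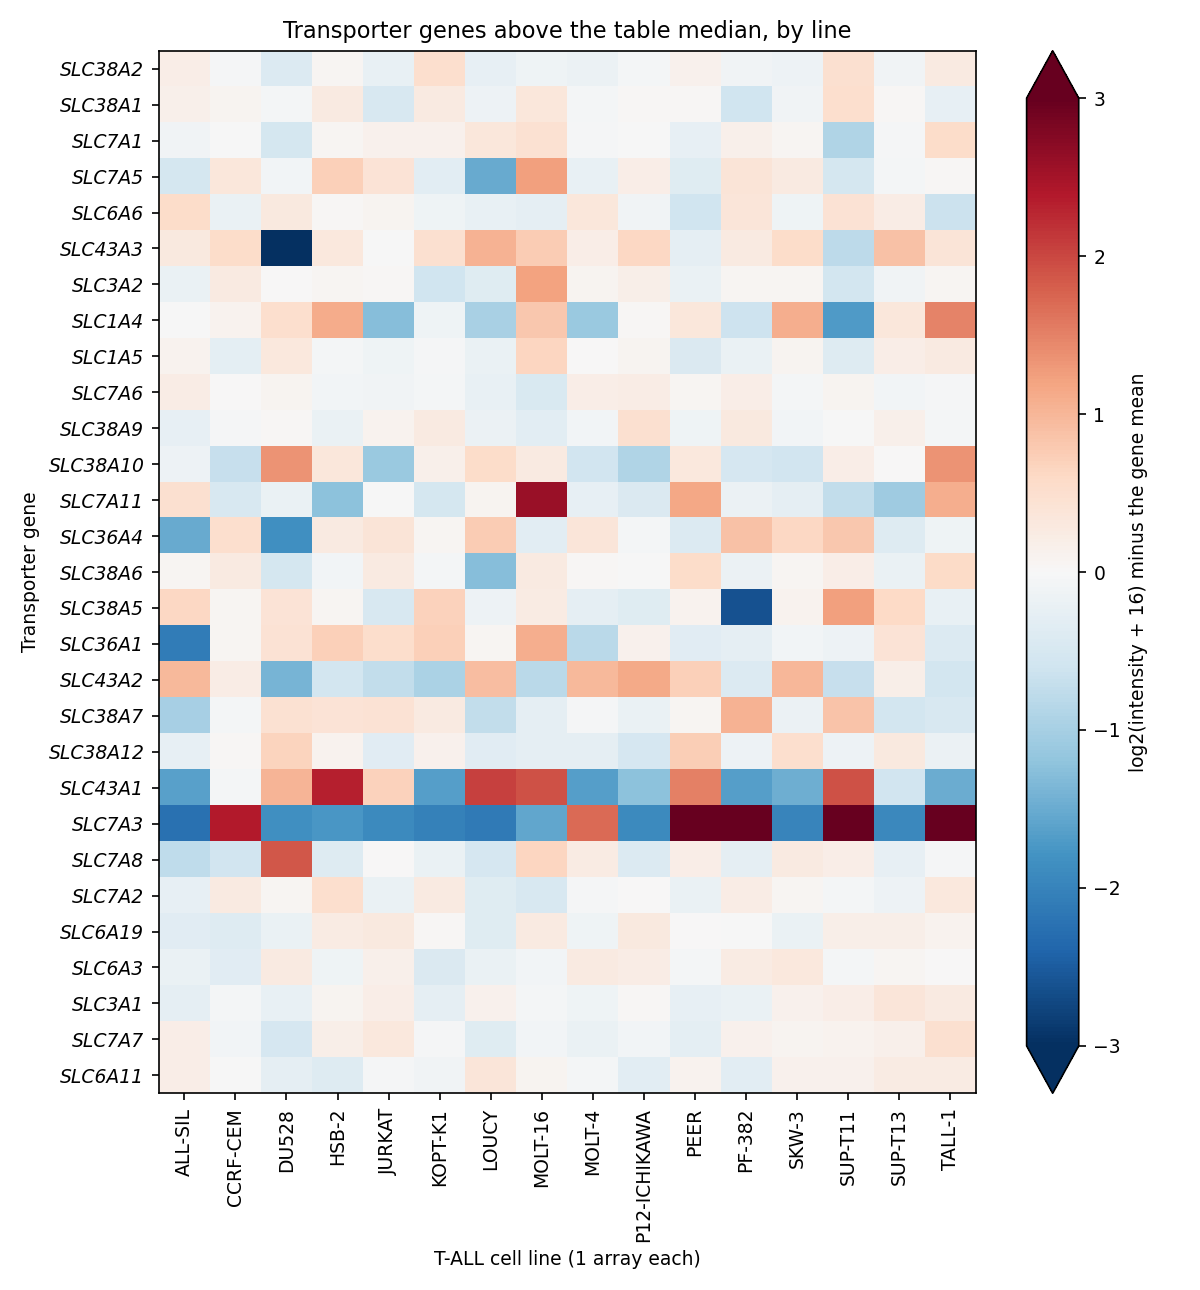
Colour shows log2(intensity + 16) minus the gene's own mean over the 16 lines, for the 29 carrier genes with a mean above the table median (rows, ordered by mean) in each T-ALL line (columns, 1 array each), with the colours ending at 3 units above and below the mean. The SLC7A3 row is dark throughout, red in its 6 high lines and blue in the other 10, the SLC43A1 row is dark in many lines, and single dark cells include SLC43A3 in DU528, SLC38A5 in PF-382, SLC36A1 in ALL-SIL and SLC7A11 in MOLT-16.

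The glutamine importers of system A were steady. SLC38A2, the importer that cells raise when amino acids are short, lay between 4316 in DU528 and 8170.3 in KOPT-K1, with a median of 5472 (SD 0.26 over 16 lines). SLC38A1, its neighbour on chromosome 12 and the other main system A carrier, lay between 3439 in PF-382 and 7390.5 in SUP-T11, with a median of 5331 (SD 0.29). Further SLC38A1 probe sets with log2 means of 11.79 and 8.47 were lowest in JURKAT, not PF-382. No line stood apart in either gene, and the highest line exceeded the lowest by 1.89 and 2.14 times. The third neighbour, SLC38A4, a system A carrier of liver, was at background in all lines with at most 16.4.

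SLC1A5, the sodium-dependent glutamine exchanger ASCT2, was as steady, from 775 in PEER to 1670.1 in MOLT-16 with a median of 1045.5 (SD 0.28). Its relative SLC1A4, the alanine, serine and cysteine exchanger ASCT1, was not. It lay between 423 in SUP-T11 and 3972 in TALL-1, with a median of 1477 (SD 0.93), a 9.08-fold range. HSB-2 (3051), SKW-3 (3012) and MOLT-16 (2499) followed TALL-1, and JURKAT (572), MOLT-4 (638) and LOUCY (711) were the next lowest, with the remaining lines spread evenly between. A further 4 probe sets of SLC1A4 also had TALL-1 highest and SUP-T11 lowest.

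The carriers of the cationic amino acids arginine and lysine differed in pattern. SLC7A1, the widely expressed carrier CAT1, lay between 2127 in SUP-T11 and 5862 in TALL-1 with a median of 4047 (SD 0.35). SLC7A3, the related carrier CAT3 known mainly from brain and early embryo, was the only member that split the lines into separate sets. It was 1616 in TALL-1, 1434.5 in PEER, 898 in SUP-T11, 860.3 in PF-382, 431 in CCRF-CEM and 263.5 in MOLT-4, and at most 12.7 in the other 10 lines, with a gap of 3.28 log2 units between the sets. The 10 low lines were thus below the table median, and the SD over the 16 lines was 2.63, the largest among the members. SLC7A3 had 1 probe set, so no further probe set could be compared. SLC7A2, the carrier CAT2, never reached 4 times the median, with at most 87.9 in HSB-2.

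SLC7A6, a light chain that exchanges cationic for neutral amino acids, had the smallest SD of the 29 genes (0.18), from 704 in MOLT-16 to 1142 in ALL-SIL with a median of 970.2. Its relative SLC7A7 stayed between 26.9 in DU528 and 69.9 in TALL-1.

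The light chains of large neutral amino acid exchange differed more. SLC7A5 lay between 1118 in LOUCY and 7648 in MOLT-16, with a median of 3190.2 (SD 0.62). LOUCY lay 0.99 log2 units below the next line, SUP-T11 (2231), and MOLT-16 lay 0.52 above the next, HSB-2 (5320.5). SLC3A2, the heavy chain, was 3738.5 in MOLT-16, 0.93 units above CCRF-CEM (1957), and ran down to 1071 in KOPT-K1, with a median of 1671 (SD 0.40). SLC7A8, the light chain LAT2, was near background in most lines, with 276 in DU528, 110 in MOLT-16 and a median of 58.4. Its highest line depends on the probe set: a further one of similar mean (r = 0.74) was highest in MOLT-16 at 151.5.

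SLC7A11, the light chain xCT that brings in cystine for glutathione in exchange for glutamate, was highest in MOLT-16 at 2645. PEER (978) and TALL-1 (938) came next, 1.42 log2 units or more below, and HSB-2 was lowest at 175, with a median of 363 (SD 0.95). MOLT-16 and HSB-2 were also the highest and lowest lines of a second SLC7A11 probe set, at 959 and 153, whose values followed the first with r = 0.97 over the 16 lines.

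SLC43A1, the branched-chain amino acid carrier LAT3, lay between 15.1 in MOLT-4 and 481 in HSB-2, with a median of 64.4 (SD 1.59). It was 388 in LOUCY, 355 in MOLT-16, 351 in SUP-T11, 262.5 in PEER, 185 in DU528 and 141 in JURKAT, against 78.9 in CCRF-CEM, 49.8 in SUP-T13 and at most 25.8 in the other 7 lines, so that the values ran from background to clear expression without a break wide enough to split them. SLC43A2, the related carrier LAT4, lay between 59.8 in DU528 and 422 in P12-ICHIKAWA with a median of 170.3 (SD 0.85). These end lines depend on the probe set: a further one (r = 0.72) was lowest in SUP-T11 and highest in SUP-T13.

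SLC43A3, a neighbour of SLC43A1 on chromosome 11 known as a purine nucleobase carrier, was expressed in all lines but 1. It lay between 1064 in SUP-T11 and 3823 in LOUCY in 15 lines, and at 31.9 in DU528, 4.50 log2 units below SUP-T11. Its second probe set was also lowest in DU528, at 18.7, and highest in LOUCY, at 1316. SLC38A5, a glutamine carrier of system N, showed the same form on a smaller scale. It was 22.5 in PF-382, 2.13 units below JURKAT (152), and up to 533 in SUP-T11, with a median of 234.0 (SD 0.83). These 2 of the 29 genes had 1 line at least 2 units below the next, against 2.18% of all genes above the median.

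**Figure D2:**
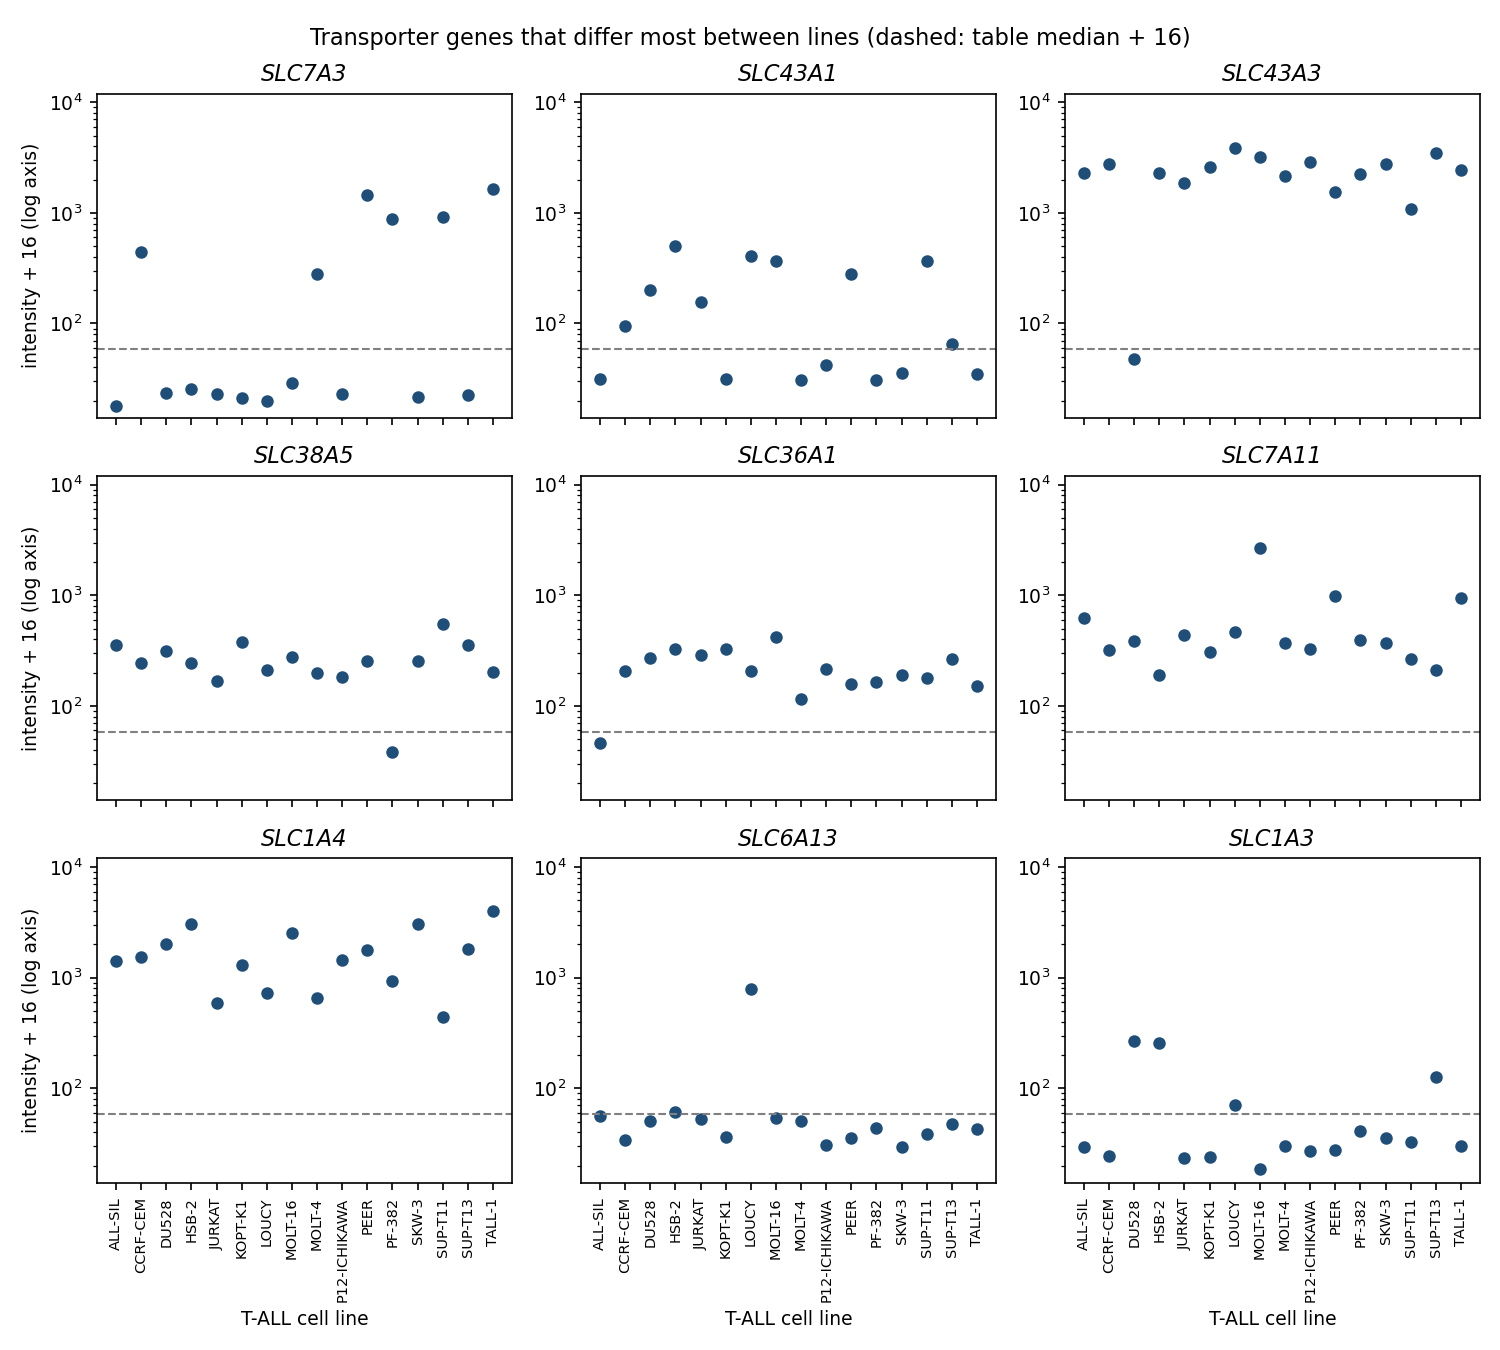
Each panel plots intensity + 16 on a log axis for 1 carrier gene in the 16 lines (1 point per array), with a dashed line at the table median + 16. SLC7A3 forms 2 sets of 6 and 10 lines, SLC43A3, SLC38A5 and SLC36A1 each have 1 line below the dashed line, SLC7A11 is highest in MOLT-16 at 2645, and SLC6A13 is clearly above the dashed line in LOUCY alone.

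Carriers of the lysosomal membrane release amino acids to the cytosol and take part in mTORC1 signalling. SLC38A9, the arginine sensor of that pathway, was steady between 504 in MOLT-16 and 894 in P12-ICHIKAWA (median 611, SD 0.22). SLC36A1, a proton-coupled carrier of small neutral amino acids, lay between 98.3 in MOLT-4 and 405 in MOLT-16 in 15 lines, and at 30.5 in ALL-SIL, 1.30 log2 units below MOLT-4 (median 191, SD 0.74). SLC38A7, which exports glutamine and asparagine from lysosomes, was also lowest in ALL-SIL (57.6) and was highest in PF-382 (290.1), with a median of 126 (SD 0.56). SLC36A4, which carries proline and tryptophan, was lowest in DU528 (86.2) and ALL-SIL (112) and reached 651 in PF-382, with a median of 393 (SD 0.78). The place of ALL-SIL in SLC38A7 depends on the probe set: of 3 further ones with a mean above the median, 2 (r = 0.86 and 0.88 with the one used) were lowest in MOLT-16 and 1 (r = -0.30) in HSB-2.

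Of the remaining genes above the median, SLC38A10 varied most. It was 1627 in DU528 and 1625 in TALL-1, 925 in LOUCY and down to 282.5 in JURKAT (median 668, SD 0.72). Of its further probe sets with a mean above the median, 3 in number, the brightest followed these values loosely (r = 0.16 over 16 lines) and the others had r of 0.34 and 0.72, so its pattern depends on the probe set. A low r with a further probe set above the median was also seen for SLC6A6 (0.04), SLC7A6 (0.12 for 1 of 2), SLC38A9 (0.26) and SLC6A11 (-0.17). SLC38A6 lay between 96.0 in LOUCY and 387 in TALL-1 (SD 0.44), SLC38A12, called TMEM104 before, between 71.0 and 191 (SD 0.38), and SLC6A6, the taurine carrier, between 1283 in TALL-1 and 2938 in ALL-SIL (median 1973.5, SD 0.35). SLC6A19, SLC6A3, SLC3A1 and SLC6A11 had means above the median and never reached 4 times it, with highest values of 72.5, 71.1, 71.0 and 62.1.

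Among the 27 genes with a mean at or below the table median, 2 were clearly above it in a few lines. SLC6A13, a carrier of the neurotransmitter GABA, was 779 in LOUCY and at most 44.4 in the other 15 lines, with a median of 29.5. A second probe set was 104 in LOUCY, its highest value. SLC1A3, the glutamate and aspartate carrier GLAST, was 254 in DU528, 242.5 in HSB-2, 111 in SUP-T13 and 54.6 in LOUCY, and at most 25.3 in the other 12 lines. Its second probe set was below the table median in every line, from 9.7 to 27.7 in DU528 (r = 0.41 with the one used). ASNS, the enzyme that makes asparagine, was 24.4 in DU528, 43.2 in LOUCY, 838 in HSB-2 and 1622 in SUP-T13. The 4 lines with SLC1A3 above the table median thus held both the lowest ASNS values and others above the ASNS median of 551. The remaining 25 genes never reached 4 times the median, with a highest value of 129 (SLC6A16 in SUP-T11) on the probe set used. A second SLC1A1 probe set with a slightly lower mean read 163 in SUP-T11 and had r = -0.01 with the one used. The 25 genes were the glutamate carriers SLC1A1, SLC1A2, SLC1A6 and SLC1A7, the neurotransmitter, creatine, glycine and imino acid carriers and their relatives SLC6A2, SLC6A4, SLC6A5, SLC6A7, SLC6A8, SLC6A9, SLC6A12, SLC6A14, SLC6A15, SLC6A16, SLC6A17, SLC6A18 and SLC6A20, the light chains and relatives SLC7A4, SLC7A9, SLC7A10, SLC7A13 and SLC7A14, and SLC38A3, SLC38A4 and SLC38A11.

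Seen by line, MOLT-16 and TALL-1 each held the highest value of 5 of the 29 genes. DU528 and ALL-SIL held the lowest of 5 and 4. Some of these places rest on values near background or on small gaps. ALL-SIL was lowest in SLC7A3 (2.1), where 10 lines were at background, and in SLC7A8 (31.1). TALL-1 was highest in SLC7A7 (69.9) and in SLC38A6 (387 against 383 in PEER). Further SLC7A1 probe sets with log2 means of 9.7 and 7.62 were highest in MOLT-16, not TALL-1. Whether the counts exceed chance was not tested. MOLT-16 was highest in SLC7A5, SLC3A2, SLC7A11, SLC1A5 and SLC36A1, and lowest in SLC7A6, SLC38A9 and SLC7A2. The median of the 29 centred values ran from -0.19 in LOUCY to 0.24 in MOLT-16. The ACTB ratio, the signal of the 3' over that of the 5' control probe set, which rises as RNA degrades, ran from 1.44 in DU528 to 2.03 in MOLT-4 and was 1.90 in MOLT-16. The part of RNA quality in the values of MOLT-16 was not tested.

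Partner chains and carriers of the same substrates were then compared across the lines. In all, 12 pairs were tested by Pearson's r and Spearman's rho with two-sided permutation tests of 100000 resamples, adjusted over the 12 by the Benjamini-Hochberg method, and 1 further pair, SLC3A1 and SLC7A9, was not tested because SLC7A9 was at background. SLC3A2 and SLC7A5, the chains of LAT1, rose and fell together, with r = 0.775 (permutation p = 0.00143, adjusted p = 0.0172) and rho = 0.771 (permutation p = 0.00077, adjusted p = 0.00924) over 16 lines. Without KOPT-K1 and MOLT-16, the lines farthest from the median of SLC3A2, r was 0.746. Without MOLT-16 alone it was 0.682 (adjusted permutation p = 0.0562), and without SUP-T11 alone it was 0.764 (adjusted permutation p = 0.0505), so the call needed both of these lines, and it held when any of the other 14 lines was left out. Each of these genes has 1 probe set here.

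SLC3A2 and SLC7A11, the chains of the cystine exchanger, had r = 0.571 (permutation p = 0.0379, adjusted p = 0.123) and rho = 0.035 (permutation p = 0.901). The relation rested on MOLT-16, the line with both values highest: r was -0.008 without it and -0.108 without KOPT-K1 and MOLT-16. SLC3A2 and SLC7A6, the chains of y+L exchange, had r = -0.432 (permutation p = 0.0984), which was 0.226 without MOLT-16.

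**Figure D3:**
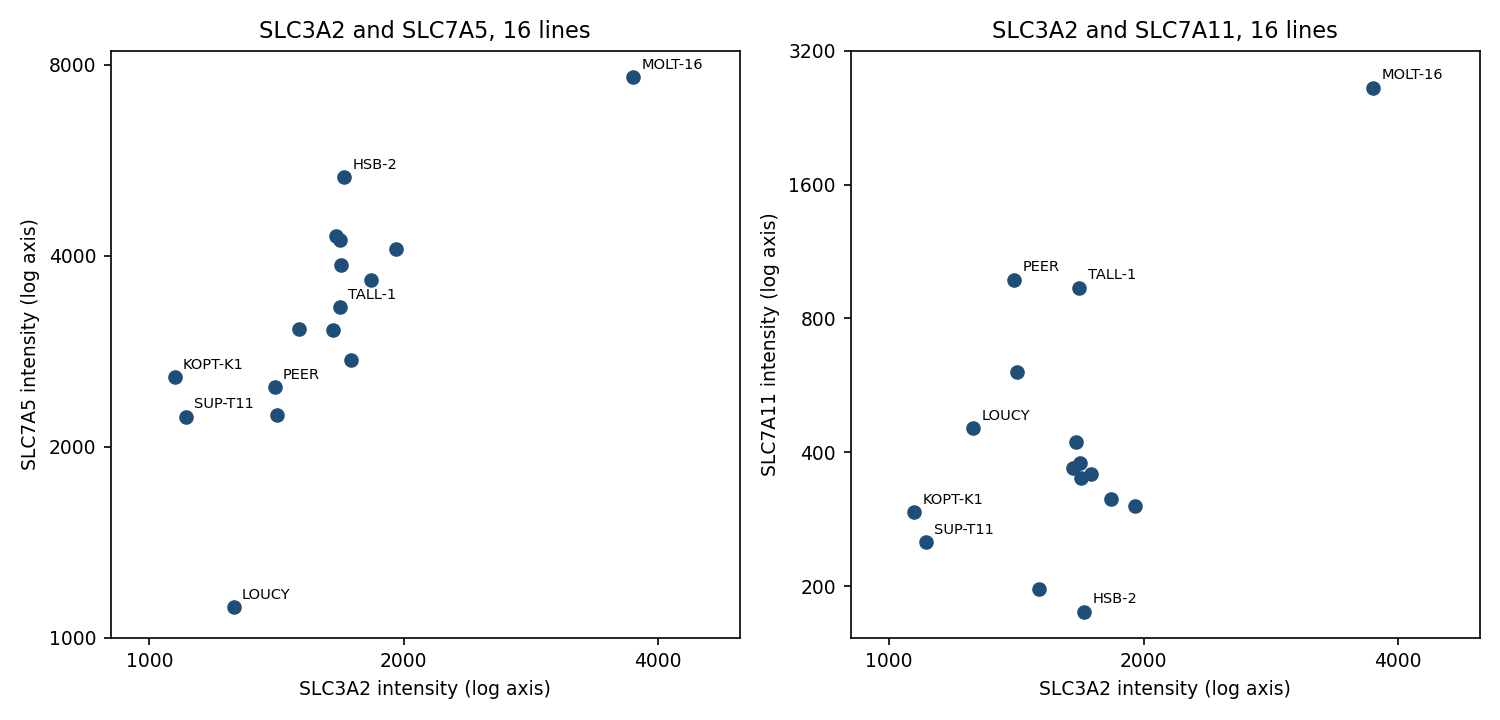
Intensities of the heavy chain SLC3A2 (x axis) and of its light chains SLC7A5 (left) and SLC7A11 (right, y axes) in the 16 lines, on log axes, with 1 point per line and some lines named. SLC7A5 runs upward with SLC3A2 from LOUCY (1118) to MOLT-16 (7648), and SLC7A11 has rho = 0.035 with MOLT-16 (2645) far above the rest.

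Of the other pairs, 3 had an unadjusted p near or below 0.05 and none passed after adjustment. The exchangers SLC1A4 and SLC1A5 had r = 0.544 (permutation p = 0.0301, adjusted p = 0.123) and rho = 0.553, with r = 0.392 without SUP-T11 and TALL-1. The neighbouring system A genes SLC38A1 and SLC38A2 had r = 0.515 (permutation p = 0.0411, adjusted p = 0.123) and rho = 0.526, with r = 0.511 without JURKAT and PF-382. The cationic carriers SLC7A1 and SLC7A6 had r = -0.5 (permutation p = 0.0527, adjusted p = 0.127) and rho = -0.571, with r = -0.617 without DU528 and SUP-T11. That direction turned to r = 0.265 when each gene was represented by its most variable probe set. The neighbours SLC43A1 and SLC43A3 had r = -0.221 (permutation p = 0.558). The other 5 pairs lay between -0.014 (SLC3A2 and SLC7A7) and 0.438 (SLC1A5 and SLC7A5), with adjusted permutation p-values from 0.169 to 0.983.

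The carriers were next set against the factors known to act on them. A list of 29 ATF4 target genes that holds no carrier of these families gave each line a value, the mean of the centred log2 levels of the 26 listed genes above the table median. MOLT-16 had the highest value (1.25), followed by HSB-2 (0.40) and SUP-T13 (0.36), and DU528 (-0.91) and ALL-SIL (-0.55) had the lowest, with the other 11 lines between -0.33 and 0.15. MOLT-16 stood highest in ASNS (5976) and in CHAC1 (1053), a glutathione-degrading enzyme induced by ATF4, and the ATF4 gene itself lay between 6341 in LOUCY and 12133 in MOLT-16. Fitted with limma against this value, 0 of the 29 carriers and 0.0% of the 11656 genes tested, in either direction, passed an adjusted p of 0.05. At an unadjusted p below 0.05 there were 6 of 29 carriers, against 913 of all genes (7.83%). The slope was above 0 in 18 of the 29, with a median of 0.14 against 0 over all genes.

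The 6 genes were SLC3A2, SLC7A5, SLC36A1, SLC43A3, SLC6A19 and SLC7A6, and slopes are given as log2 units per unit of the list value with their SE. SLC3A2 had a slope of 0.50 ± 0.19 (limma, p = 0.0181, adjusted p = 0.597), which was 0.00 without MOLT-16. SLC7A5 had 0.72 ± 0.29 (p = 0.0224, adjusted p = 0.597), with 0.43 without MOLT-16 and 0.97 without DU528. SLC43A3 had 1.76 ± 0.67 (p = 0.0187, adjusted p = 0.597), with 0.22 without DU528, the line in which it was at background, and 2.98 without MOLT-16. SLC36A1 had 0.81 ± 0.36 (p = 0.0398, adjusted p = 0.617), with 0.47 without ALL-SIL and 1.30 without DU528, and SLC7A6 had -0.25 ± 0.10 (p = 0.0254, adjusted p = 0.597), with -0.13 without MOLT-16. SLC6A19, which never reached 4 times the table median, had 0.32 ± 0.13 (p = 0.0248, adjusted p = 0.597). SLC7A11, a textbook ATF4 target, had 0.74 ± 0.48 (p = 0.144, adjusted p = 0.75). Between the list value and the ACTB ratio r was 0.199 (permutation p = 0.471, adjusted p = 0.706 over 3 relations) and rho was 0.015. Without DU528 and MOLT-16 r was -0.409.

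MYC, which drives growth and is known to raise SLC7A5 and SLC1A5, lay between 3638 in TALL-1 and 9554 in MOLT-16 in 15 lines and at 23.6 in LOUCY. LOUCY was also the line with the lowest SLC7A5, and its MYCN, a related factor, was 4138 against 5120.3 in DU528 and at most 529.7 elsewhere. Over the 15 lines without LOUCY, limma called 0 of 29 carriers and 0.0% of 11681 genes, in either direction, and at an unadjusted p below 0.05 there were 0 carriers and 997 genes (8.54%). The slope on MYC was above 0 in 11 of the 29 carriers, with a median of -0.08 against 0 over all genes. The smallest p-values belonged to SLC43A3 (slope 1.55 ± 0.86 log2 units per log2 unit of MYC, p = 0.0929, adjusted p = 0.649), SLC3A2 (0.42 ± 0.24, p = 0.101, adjusted p = 0.66) and SLC7A3 (-2.62 ± 1.54, p = 0.109, adjusted p = 0.676). SLC7A5 had 0.41 ± 0.29 (p = 0.178, adjusted p = 0.737) and SLC1A5 had 0.21 ± 0.19 (p = 0.275, adjusted p = 0.791). With LOUCY included, 57 genes and 0 carriers were called.

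NRF2, the factor of the oxidative stress response, is known to raise SLC7A11. The value of a list of 17 NRF2 target genes, of which 15 were measured and 11 lay above the median, was highest in MOLT-16 and SKW-3 (0.40 each) and lowest in ALL-SIL (-0.44). Against it limma called 0 of 29 carriers and 0.0% of 11671 genes, in either direction, and at an unadjusted p below 0.05 there were 4 carriers and 1206 genes (10.3%). These were SLC7A5 with a slope of 1.20 ± 0.47 (p = 0.0208, adjusted p = 0.409), SLC7A8 with 1.18 ± 0.48 (p = 0.0266, adjusted p = 0.426), SLC43A1 with 2.79 ± 1.24 (p = 0.0393, adjusted p = 0.462) and SLC36A1 with 1.29 ± 0.60 (p = 0.0471, adjusted p = 0.476), the last with 0.56 without ALL-SIL. SLC7A11 had 0.41 ± 0.85 (p = 0.636, adjusted p = 0.906). SLC7A5 and SLC36A1 were thus among the genes with a small unadjusted p in both list fits, whose drivers had r = 0.362 with each other (permutation p = 0.171, adjusted p = 0.513), rho = 0.315, and r = 0.444 without DU528 and MOLT-16. The slope was above 0 in 18 of 29 carriers, with a median of 0.21 against 0.03 over all genes.

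**Figure D4:**
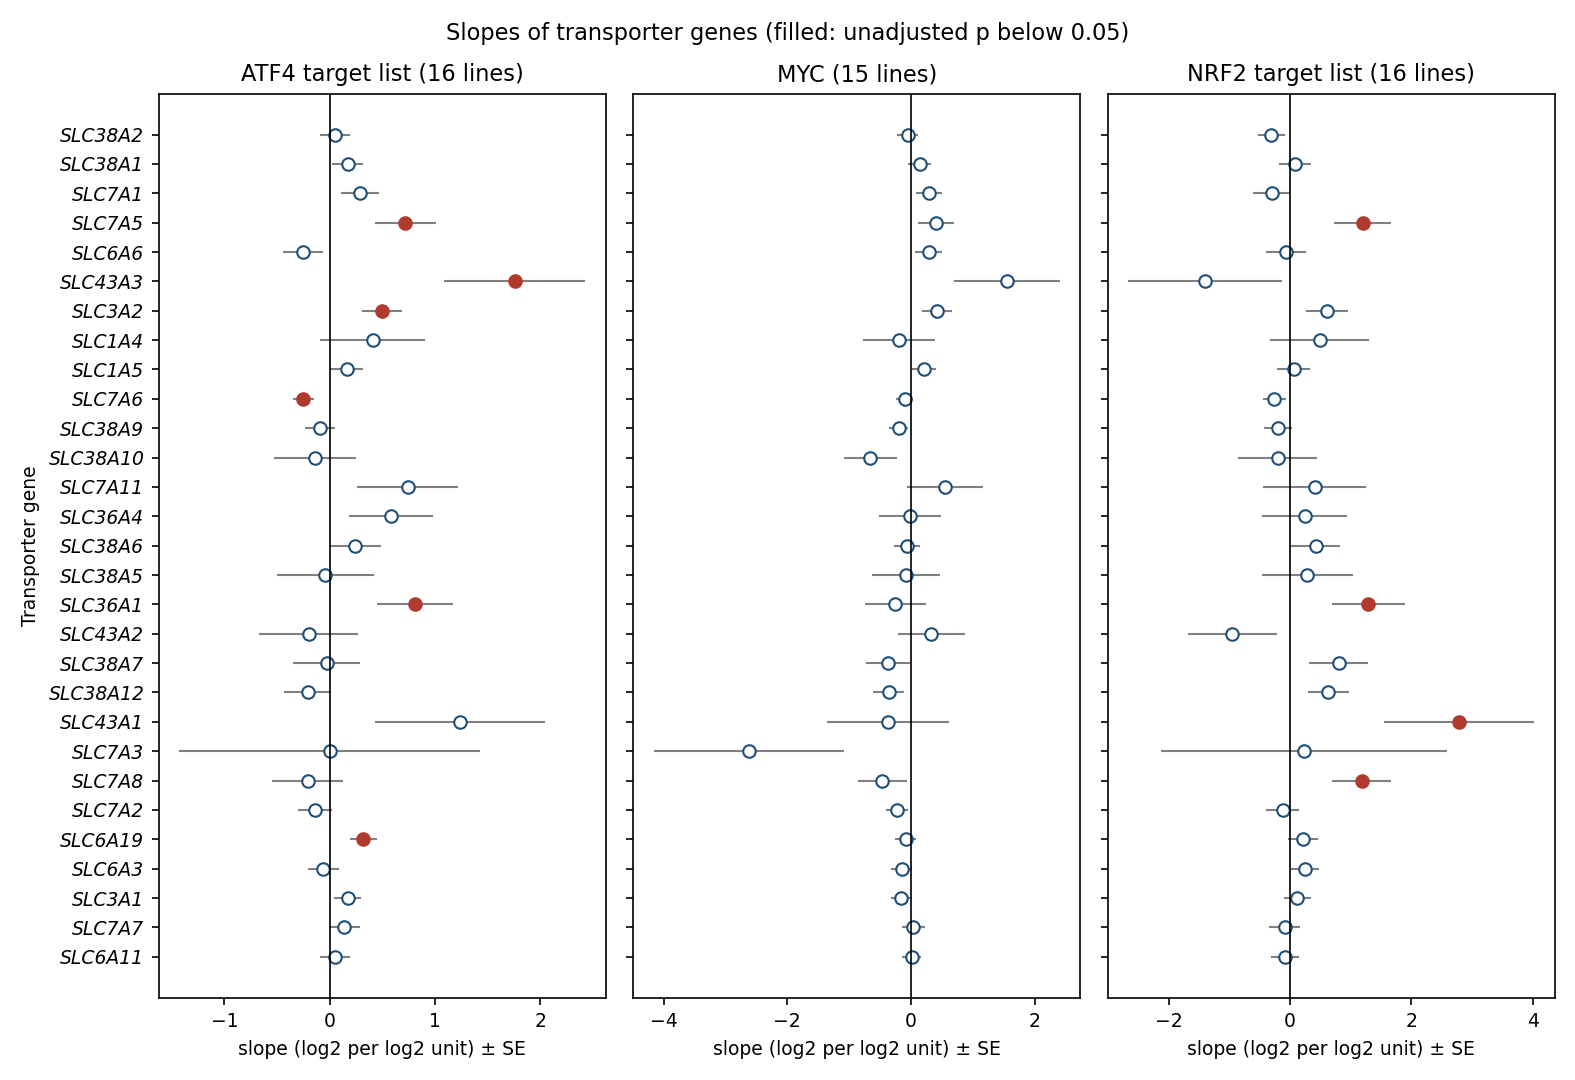
Slopes with their SE from limma for the 29 carrier genes above the table median (rows) against the ATF4 target list value (16 lines), MYC (15 lines) and the NRF2 target list value (16 lines), in log2 units per unit of the driver. Filled points have an unadjusted p below 0.05 (6, 0 and 4 genes), and none passed after adjustment over all genes.

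Genes of the pathways that read the amino acid supply were described from lists beside the carriers. Of 33 listed genes of amino acid signalling to mTORC1, which include genes of the complex itself and are not all sensors, 32 were measured. All 32 had a mean above the table median (59.2% of all genes). An SD above 1 was seen in 2, against 17.1% of all genes above the median. These were SESN3, a sestrin, from 2.9 in KOPT-K1 to 2283 in SUP-T11, and RRAGD, a Rag GTPase of the lysosome, from 33.6 in DU528 to 2629.5 in ALL-SIL. The leucine sensor SESN2 lay between 121 in MOLT-4 and 999.6 in SUP-T11, and the arginine sensor CASTOR1 between 27.0 and 317. The list of the GCN2 and ATF4 arm holds GCN2, which responds to uncharged tRNA, and also kinases that do not (EIF2AK1, EIF2AK2 and EIF2AK3). All 9 of its genes lay above the median with no SD above 1. Among them PPP1R15A, which helps to end the response, varied most (43.6 in SUP-T11 to 272 in DU528), and GCN2 itself (EIF2AK4) ran from 669 in P12-ICHIKAWA to 1453 in SKW-3. Of 15 carriers of other families 13 lay above the median (59.2% of all genes) and 4 had an SD above 1 (12.5% of all genes). SLC17A9, a vesicular nucleotide carrier whose family also moves glutamate, ran from 11.6 in SKW-3 to 2145 in MOLT-4. SLC16A10, a carrier of aromatic amino acids, lay between 2.7 in DU528 and 781 in SKW-3, and SLC15A4, a lysosomal carrier of histidine and peptides, between 5.9 in ALL-SIL and 1448 in LOUCY. SLC25A13, the mitochondrial aspartate and glutamate carrier, ran from 4.3 in P12-ICHIKAWA to 1199 in LOUCY. Limma called 0 genes of these lists in the fits on the ATF4 list, MYC and the NRF2 list.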

How the data were processed

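Each of 16 T-ALL lines gave total RNA for 1 Affymetrix U133 Plus 2.0 array. Per the values, the authors deposited linear probe set intensities between 0.6 and 24485. How the authors corrected background and scaled the arrays is not given in the sources used here, and no further scaling was applied. The annotation pairs 41097 probe sets with 1 gene (41048 matched RefSeq) and 1801 with several genes, which were not used, and 62 probe sets are controls. For each gene the probe set with the largest mean of log2(intensity + 16) was kept. This scale understates differences of dim genes.

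Genes with a mean above the table median were fitted with limma 3.58.1, with the trend and robust options, under R 4.3.3. Driver genes were left out of the genes tested, p-values were adjusted by the Benjamini-Hochberg method over all genes tested, and MYC was fitted without LOUCY. Lines counted as split where the largest gap was at least the third part of the range, with at least 3 lines on each side. Correlations and counts were computed in Python 3.11.15 with scipy 1.17.1, numpy 2.4.6 and pandas 2.3.3 (seed 1), and plots with matplotlib 3.10.9. Simulated data served to test each fit and permutation step. The text names every member, giving values for those with a mean above the table median or above 4 times it in a line, and genes of a list only from the 6 with the largest SD in it, beside the drivers and CD3E, which was named after its values were seen. The members and lists were chosen with earlier results of these data known. Alternatives changed the pseudocount, scaling, probe set rule, filter, covariate and lines used.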

Additional observations from a re-analysis of the deposited data

How the results depend on the processing

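The fits against the ATF4 list, MYC and the NRF2 list called 0 carriers under each of 27, 25 and 26 alternatives run, and the MYC fit without probe sets ending in _x_at or _s_at could not be run because MYC has no other. The count of carriers above the table median kept within 1.5 times of 29 under 7 alternatives and was 18 with the threshold at 4 times the median. The count of carriers with an SD above 1 was 5 in the main analysis, 7 with log2(intensity + 1), 3 with log2(intensity + 64), 3 with the mean of all probe sets and 3 without probe sets ending in _x_at or _s_at, and 4 to 5 when each line was left out in turn. The number of pairs that passed, 1 in the main analysis, was 0 without those probe sets, where SLC3A2 and SLC7A5 have no value, and ran from 0 to 1 when each line was left out in turn, with 0 without MOLT-16 and 0 without SUP-T11. The correlation of SLC7A1 and SLC7A6 reversed to 0.265 with the most variable probe set, and that of SLC3A2 and SLC7A11 ran from -0.008 without MOLT-16 to 0.656 when each line was left out in turn. The cause of the first reversal was not tested. The alternatives for the count above the median that changed the scaling, took the most variable probe set or left out probe sets by their ending, and the last of these for the SD count, were chosen after seeing the data. No paired analysis was possible because all lines form 1 group. Genes near the table median carry little signal over background, so their differences between lines are the least certain.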

Other observations

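Several enzymes that make amino acids differed widely between the lines. PSAT1, an enzyme of serine synthesis, was 4.9 in DU528, 8.5 in LOUCY, 10.0 in ALL-SIL and 14.1 in TALL-1, and between 1938.5 in MOLT-4 and 10856 in MOLT-16 in the other 12 lines. PHGDH, the first enzyme of the same pathway, was 23.5 in DU528, while ALL-SIL (5766), TALL-1 (6148) and LOUCY (3784) lay near or above its median of 4308, so of the 4 lines low in PSAT1 DU528 alone was low in PHGDH. CBS, an enzyme of cysteine synthesis, ran from 4.7 in LOUCY to 2194 in HSB-2, and 7 lines exceeded 4 times the table median. GLUL, glutamine synthetase, was 42.1 in SUP-T11, the line with the highest SLC38A1 and SLC38A5, and 11040.2 in HSB-2, with a median of 5221. ASRGL1, an asparaginase, ran from 20.8 in ALL-SIL to 2781 in PEER. Of the 18 measured genes of glutamine, asparagine and cystine metabolism 6 had an SD above 1, and of the 29 ATF4 target genes 12. The share over all genes was 12.5%, and ASNS and CTH stand in both lists. These genes were named for their large SD, so their ranges are a description.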
